A study of Mus musculus with 12 samples.

Results

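Collagens are the triple-helical proteins of the extracellular matrix, and each helix is built from 3 chains encoded by separate genes. The genes described here are all rows of the count table whose Ensembl identifier has a gene symbol made of Col, digits, the letter a and digits. This gave 44 genes of 53452 in the table. The gene Col4a3bp only begins like a chain name, encodes a ceramide transfer protein and was left out. Of the 44 genes, 32 had enough reads to be tested, among 16036 tested genes, and 12 did not.

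The cells were HSCs isolated from the liver of wild-type mice, an abbreviation read here as hepatic stellate cells, and were cultured for 12 h before a change of medium. DMSO, the solvent, was given for the last 12 h before collection. Riociguat stimulates soluble guanylate cyclase, the enzyme that makes cyclic GMP, and was given for the last 6, 12 or 24 h, at a dose that the labels do not state. Each of these 4 groups has 3 libraries. All were harvested 24 h after the new medium, so riociguat was added 18 h, 12 h and 0 h after that change in the 6, 12 and 24 h groups. DMSO at 12 h matches the riociguat 12 h group in time of addition, and the other 2 riociguat groups do not share it. The labels do not tie replicates to separate animals, so the p-values reflect only variation among these libraries, which could be technical.

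Stellate cells store vitamin A in the healthy liver. After injury or in culture they turn into myofibroblasts, which make much of the scar collagen. Fibrillar chains (types I, III, V) form the banded fibrils of scar tissue. Type IV chains form the sheet of the basement membrane, which in the liver lines bile ducts and vessels. Type VI chains form beaded filaments around cells, and fibril-associated collagens with interrupted helices (FACIT, here types XII, XIV and XVI) bind to the surface of fibrils. Types XV and XVIII are multiplexins, basement membrane collagens that carry sugar chains. Type VIII is a short-chain network collagen of vessel walls.

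Libraries held 12953096 to 27358893 counts. DMSO replicate 1 stood somewhat apart from the other DMSO libraries, with a chi-square per degree of freedom of 12.3 and 16 in its pairs. DMSO replicates 2 and 3 gave 4.08, the lowest among all within-group pairs. Pairs within the riociguat groups reached 7.93. The 10 stellate markers, all detected in every group, summed to 2455 ± 27.7 CPM in DMSO (SD, n = 3). Under riociguat the sum was 2623 ± 49.7 at 6 h, 2641 ± 64.9 at 12 h and 2773 ± 65.7 CPM at 24 h. Without Reln, the most abundant, the 4 sums were 1089 ± 16.6, 1071 ± 30.9, 1047 ± 37.3 and 1108 ± 22.5 CPM. Against DMSO, 1 marker rose at 6 h, 2 rose and 2 fell at 12 h, and 6 rose and 2 fell at 24 h (edgeR, adjusted p under 0.05). Of all genes, 4.48%, 2.18% and 5.94% rose and 5.24%, 3.48% and 7.41% fell. CPM are counts relative to library size, after TMM scaling. Markers of endothelial cells summed to 1065 ± 43.2 CPM, of hepatocytes to 1207 ± 27.9 CPM and of macrophages to 140 ± 6.01 CPM in DMSO (SD, n = 3), so RNA of other liver cells was present. In bulk RNA, fewer cells of a type and less RNA per cell cannot be told apart.

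Type IV chains dominated the collagen transcripts in the bulk RNA of these cultures. Per kilobase of exon, which is the scale for comparing genes, Col4a1 stood at 347 ± 20.6 CPM per kb and Col4a2 at 186 ± 7.94 CPM per kb in DMSO (SD, n = 3). Col1a1 followed at 54.5 ± 0.820, Col5a1 at 40.7 ± 1.32 and Col5a2 at 38.8 ± 2.17 CPM per kb. Col3a1 had 32.2 ± 0.746 and Col6a1 31.4 ± 1.19 CPM per kb, and these values overlapped between libraries, as did those of Col5a1 and Col5a2. Col6a3, Col12a1, Col18a1, Col14a1 and Col1a2 formed a group at 18.3 to 20.5 CPM per kb in which neighbours in the order did not separate. Col6a2 at 12.6, Col16a1 at 10.6 and Col8a1 at 3.43 CPM per kb came lower, each separate from the next. The order of the middle genes depends on the length used. With the longest transcript in place of all exons, Col1a2 moved to place 6, against place 12, and stood at 42.5 CPM per kb.

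**Figure D1:**
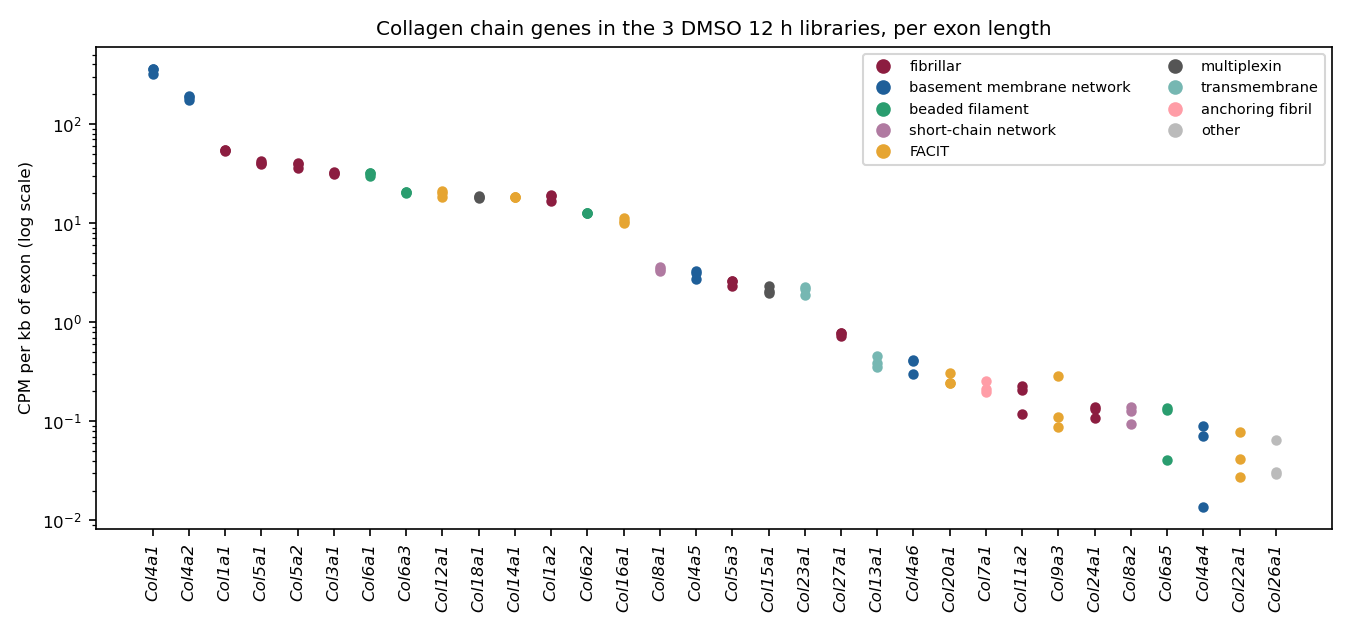
Level of the 32 tested collagen chain genes in the 3 DMSO 12 h libraries, in CPM per kb of exon on a log axis; each point is a library and colours give the collagen class. Col4a1 (347 CPM per kb) and Col4a2 (186 CPM per kb) stand above every other chain.

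Summed over chains, collagens took less of the library in each riociguat group. Their share of all counts was 0.662 ± 0.0267% in DMSO, 0.530 ± 0.00941% at 6 h, 0.541 ± 0.0216% at 12 h and 0.492 ± 0.0103% at 24 h (SD, n = 3 each). Col4a1 and Col4a2 together gave 0.379%, 0.295%, 0.262% and 0.237% in that order of groups. The remaining chains gave 0.283%, 0.235%, 0.278% and 0.255%. Within the collagen counts the pair therefore made up 57.2% in DMSO, 55.7% at 6 h, 48.5% at 12 h and 48.2% at 24 h. Fibrillar chains made up 24.7%, 24.5%, 29.2% and 30.3% of the collagen counts, and beaded filament chains 7.34%, 7.41%, 9.40% and 10.3%. Of all counts, however, fibrillar chains gave 0.163%, 0.130%, 0.158% and 0.149%, lower in each riociguat group than in DMSO. Beaded filament chains gave 0.0485%, 0.0392%, 0.0508% and 0.0506% of all counts. These shares are sums over the chains and were not tested.

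**Figure D2:**
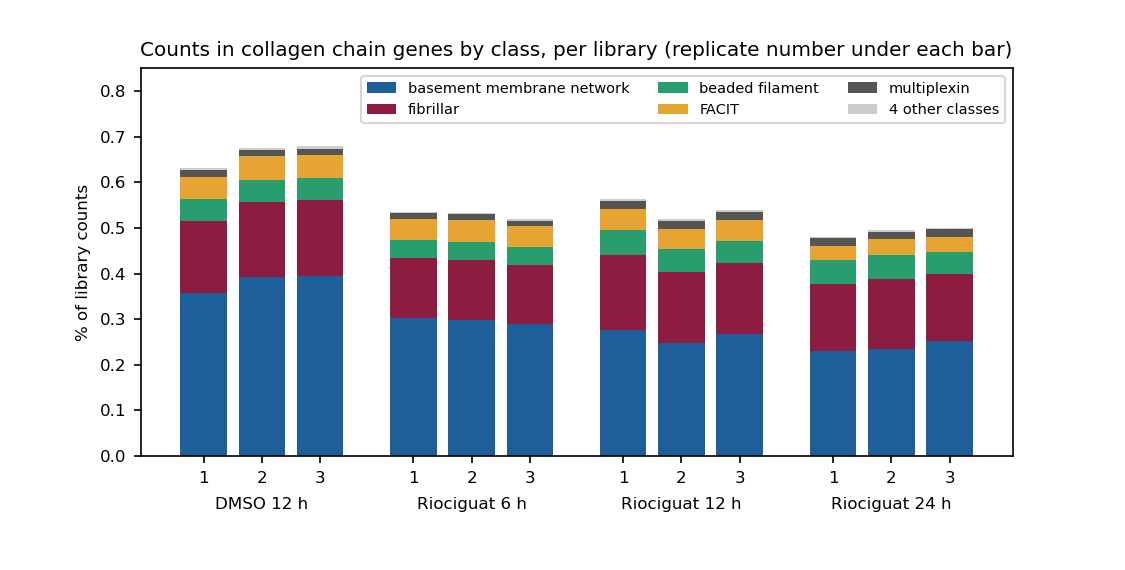
Percent of each library's counts that fell in collagen chain genes, stacked by class, with replicate numbers under the bars. The 3 DMSO 12 h libraries reach 0.631% to 0.679%, and the 9 riociguat libraries 0.481% to 0.563%.

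Of the 32 tested chains, 17 (53.1%) differed among the 4 groups at an adjusted p under 0.05 in edgeR's quasi-likelihood test, the rule for a call throughout, against 18.3% of all tested genes. Calls are easier to reach for abundant genes, and the chains were not matched to other genes by level. Against DMSO, 2 chains rose and 12 fell at 6 h, where 4.48% of all genes rose and 5.24% fell. At 12 h, the comparison matched in time, 4 chains rose and 7 fell, where 2.18% of all genes rose and 3.48% fell. At 24 h, 4 chains rose and 9 fell, where 5.94% of all genes rose and 7.41% fell. The median log2 fold change of the chains was -0.14 at 6 h, -0.02 at 12 h and -0.11 at 24 h, and that of all genes lay between -0.01 and 0.00. The 3 comparisons share the DMSO libraries. Without DMSO replicate 1, which stood apart, 1 chain rose and 11 fell at 6 h, 4 rose and 7 fell at 12 h, and 4 rose and 9 fell at 24 h. By class at 6 h, 4 of 9 fibrillar, 2 of 5 basement membrane, 1 of 4 beaded filament and both multiplexin chains fell, and the FACIT class held 2 that fell and 1 that rose. Also at 6 h, 1 of 2 short-chain network chains fell and 1 of 2 transmembrane chains rose. By class at 12 h, 1 of 9 fibrillar chains rose and 2 fell, and 2 of 5 basement membrane chains fell. Of 4 beaded filament chains 2 rose and 1 fell, 1 of 6 FACIT chains fell and 1 of 2 multiplexin chains rose. In the short-chain network class 1 of 2 fell. By class at 24 h, 3 fibrillar chains fell and 1 rose, 2 beaded filament chains rose and 1 fell, and 2 of 6 FACIT chains fell. Also at 24 h, 2 of 5 basement membrane and 1 of 2 short-chain network chains fell, and 1 of 2 multiplexin chains rose.

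**Figure D3:**
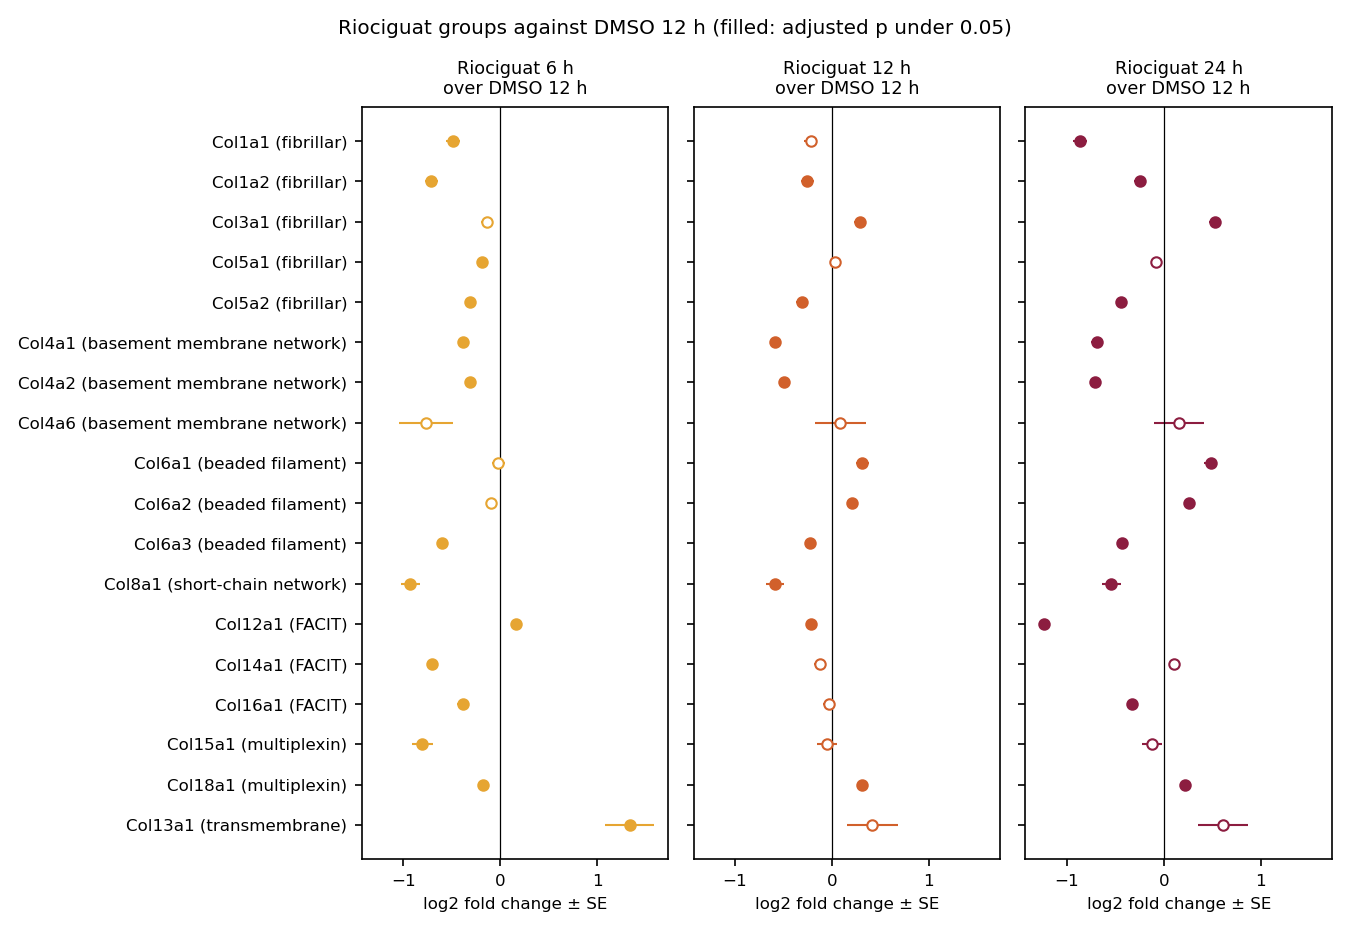
Log2 fold change against DMSO 12 h with its standard error for the 18 collagen chains called in at least 1 comparison, by class, at riociguat 6, 12 and 24 h; filled points have an adjusted p under 0.05. The largest fall is Col12a1 at 24 h (-1.23) and the largest rise Col13a1 at 6 h (1.34), a gene under 5 CPM.

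The basement membrane pair gave most of the collagen counts in DMSO. Col4a1 and Col4a2 encode the α1 and α2 chains that together form the ubiquitous type IV collagen. Both genes lie head to head on chromosome 8 (GRCm38), Col4a1 (ENSMUSG00000031502) at 11198423 to 11312826 on the minus strand and Col4a2 (ENSMUSG00000031503) at 11312805 to 11449287 on the plus strand. Their annotated starts overlap by 22 bases, and reads in that overlap may be split between them, since whether counting used strand is not stated. Windows from 250 bases before to 50 after each start, from RefSeq on GRCm38.p6, are shown because the pair carried most of the collagen signal; they share 78 bases. The Col4a1 window is chr8:11312777-11313076 on the minus strand and the Col4a2 window chr8:11312555-11312854 on the plus strand. Capitals mark CCAAT boxes (CCAAT) and GC boxes (GGGCGG), searched on both strands.
Col4a1: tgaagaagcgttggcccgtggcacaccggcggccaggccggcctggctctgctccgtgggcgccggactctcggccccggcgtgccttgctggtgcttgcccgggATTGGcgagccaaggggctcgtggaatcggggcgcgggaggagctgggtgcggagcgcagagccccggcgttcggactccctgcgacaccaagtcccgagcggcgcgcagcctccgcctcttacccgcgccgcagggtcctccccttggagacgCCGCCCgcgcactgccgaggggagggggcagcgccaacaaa
Col4a2: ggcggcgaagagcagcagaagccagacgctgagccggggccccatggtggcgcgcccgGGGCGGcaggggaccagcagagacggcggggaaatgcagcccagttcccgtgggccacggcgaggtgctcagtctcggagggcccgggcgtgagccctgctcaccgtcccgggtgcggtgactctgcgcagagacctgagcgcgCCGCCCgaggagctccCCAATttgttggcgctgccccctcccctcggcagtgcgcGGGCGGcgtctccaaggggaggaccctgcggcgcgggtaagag
The windows are 74.0% and 73.7% G and C, against a median of 52.7% over all 32851 windows. GC boxes occur in 35.7% and CCAAT boxes in 37.4% of all windows. A match is a string of letters and not a shown site.

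Col4a1 and Col4a2 fell in every riociguat group. Col4a1 had 2413, 2668 and 2689 CPM in DMSO, 2059, 1976 and 1939 CPM at 6 h, 1813, 1613 and 1757 CPM at 12 h and 1546, 1569 and 1692 CPM at 24 h. All 9 riociguat libraries lay below all 3 DMSO libraries, and the 12 h and 24 h libraries overlapped. The log2 fold changes against DMSO were -0.38 ± 0.05 at 6 h (SE, adjusted p = 0.000137), -0.58 ± 0.05 at 12 h (adjusted p = 1.12e-06) and -0.69 ± 0.05 at 24 h (adjusted p = 1.04e-07). Col4a2 had 1169, 1263 and 1255 CPM in DMSO, 1011, 986 and 983 CPM at 6 h, 900.1, 839 and 879 CPM at 12 h and 739, 734 and 784 CPM at 24 h. Each group of Col4a2 lay below the one before it, with no overlap. Its changes against DMSO were -0.31 ± 0.04 at 6 h (adjusted p = 0.000147), -0.49 ± 0.04 at 12 h (adjusted p = 7.35e-07) and -0.71 ± 0.04 at 24 h (adjusted p = 9.43e-09). At 24 h the Col4a1 level was thus 38.1% and the Col4a2 level 38.8% below that of DMSO. The 7 smooth muscle markers, among them Acta2 and Myh11, summed to 811 to 974.7 CPM in DMSO, 524 to 597 CPM at 6 h, 432 to 456 CPM at 12 h and 432 to 448 CPM at 24 h, and 4, 5 and 4 of the 7 fell at 6, 12 and 24 h, where 5.24%, 3.48% and 7.41% of all genes fell. Endothelial cells also make type IV collagen, and their 10 markers, none at 0, summed to 1017 to 1101 CPM in DMSO, 1256 to 1336 CPM at 6 h, 976 to 1025 CPM at 12 h and 868 to 903 CPM at 24 h. Of these 10 markers 4 rose at 6 h (4.48% of all genes), 1 fell at 12 h (3.48%), and 2 rose (5.94%) and 4 fell (7.41%) at 24 h. Without Acta2 the smooth muscle sum was 393 to 449 CPM in DMSO. It was 345 to 370 CPM at 6 h, 311 to 334 CPM at 12 h and 322 to 333 CPM at 24 h. Des is also in the stellate list, so the smooth muscle list does not mark a cell type apart from stellate cells. The part of smooth muscle or endothelial cells in the collagen changes was not tested. Between exposure times, the fall of Col4a1 and Col4a2 at 12 h against 6 h was lost without certain libraries, Col4a1 without riociguat 6 h replicate 1 or 2 or riociguat 12 h replicate 2 or 3 (adjusted p 0.0558 to 0.175) and Col4a2 without riociguat 6 h replicate 1 or riociguat 12 h replicate 2 (adjusted p 0.0606 to 0.103).

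The other type IV chains were scarce. Col4a5 had group means of 19.1 to 20.5 CPM and passed no test. Col4a6 averaged 2.98 ± 0.492 CPM in DMSO, 1.81 ± 0.702 CPM at 6 h, 3.18 ± 0.0674 CPM at 12 h and 3.33 ± 0.422 CPM at 24 h (SD, n = 3 each). Its 24 h over 6 h change of 0.92 ± 0.28 (adjusted p = 0.0319) was lost without riociguat 6 h replicate 3, riociguat 24 h replicate 1 or 2 (adjusted p 0.0624 to 0.162) and with only the 6 libraries compared (adjusted p = 0.0642). Col4a4 had at most 0.620 CPM in any group mean, and Col4a3 was not tested. Both encode chains of specialised membranes such as that of the kidney filter.

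**Figure D4:**
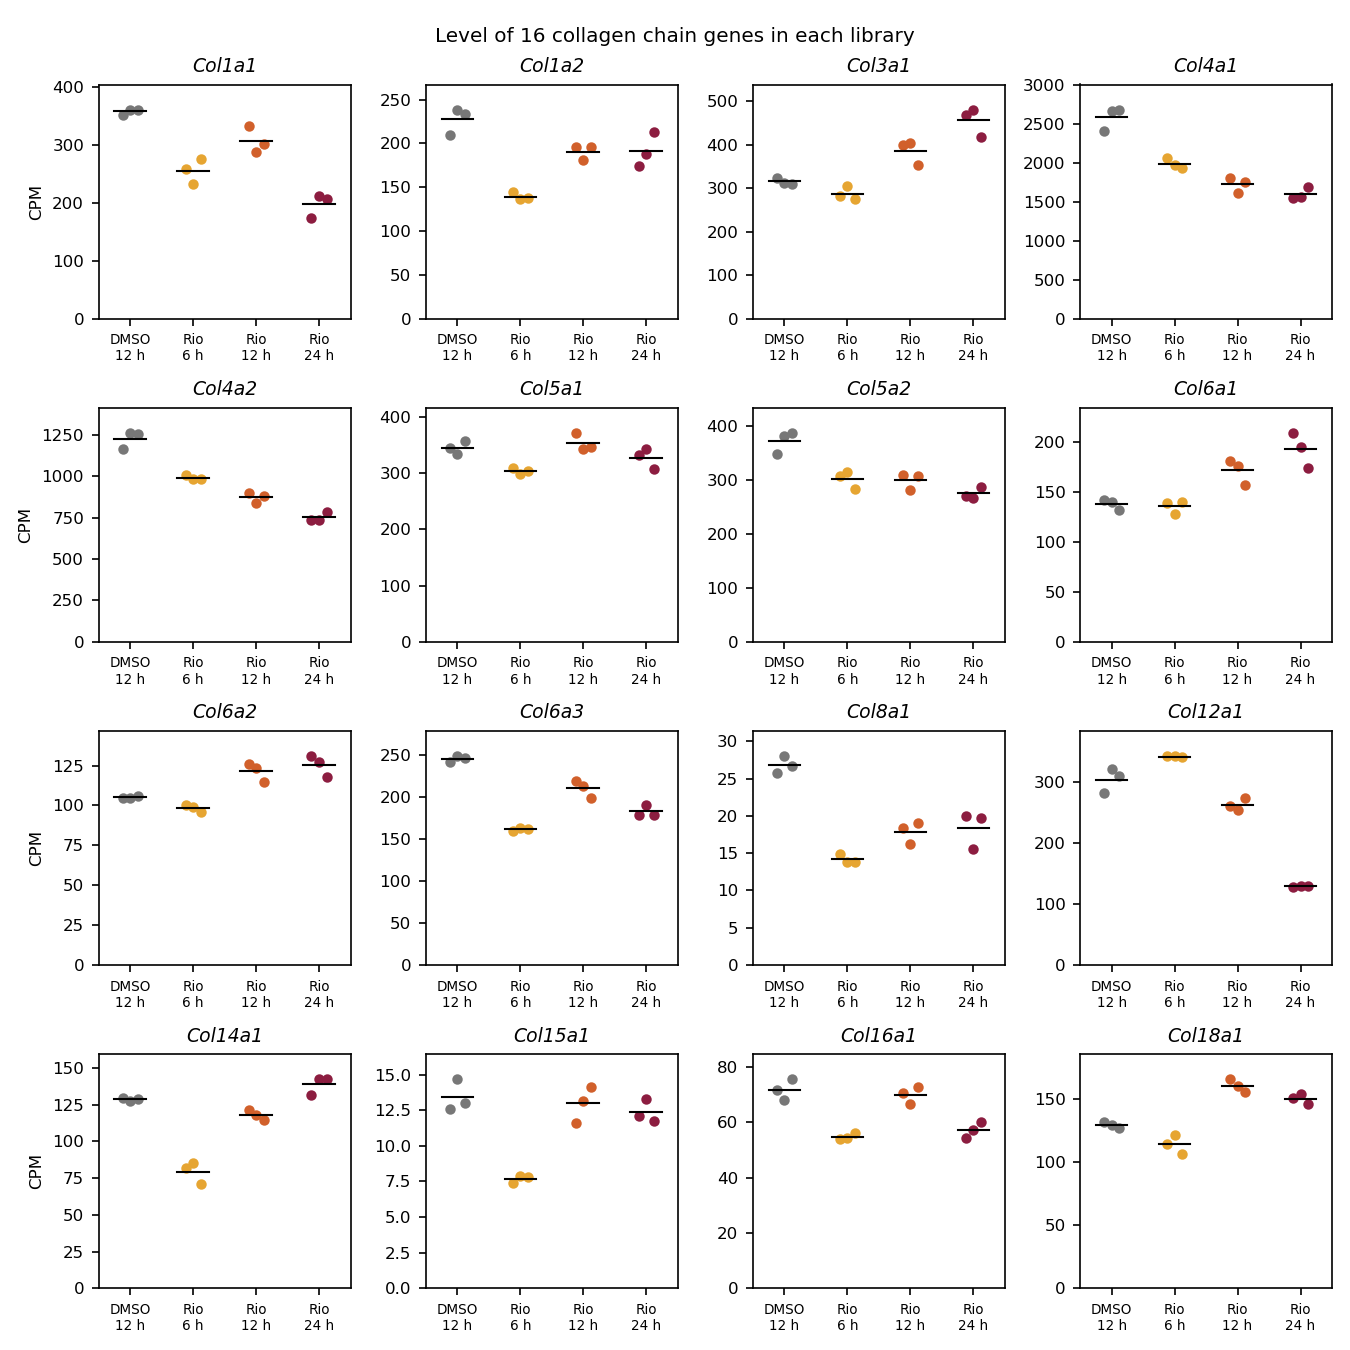
CPM of the 16 chains called in at least 1 comparison and reaching 5 CPM in a group, per library, with a line at the group mean; each panel starts at 0. Col4a1 and Col4a2 are lower in every riociguat library than in every DMSO library, and Col12a1 averages 129 CPM in the 3 riociguat 24 h libraries.

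Fibrillar chains split. Type I collagen combines α1 and α2 chains, with more α1 than α2. Col1a1 (ENSMUSG00000001506, chromosome 11, 94936224 to 94953042) had 352, 361 and 361 CPM in DMSO, 258, 233 and 276 CPM at 6 h, 332, 288 and 302 CPM at 12 h and 174, 211 and 206 CPM at 24 h. Its lowest libraries were those of 24 h, and the 6 h and 12 h libraries stood between these and DMSO. The fold changes against DMSO were -0.49 ± 0.07 at 6 h (adjusted p = 0.000227) and -0.86 ± 0.07 at 24 h (adjusted p = 2.83e-07). At 12 h it was -0.22 ± 0.07 and missed the threshold (adjusted p = 0.0878). It did pass with no filter on low counts, with DESeq2, with only the 6 libraries compared and without riociguat 24 h replicate 1 (adjusted p 0.00156 to 0.0447). Col1a2 had 209.8, 239 and 234 CPM in DMSO, 144, 136 and 137 CPM at 6 h, 195, 181 and 196 CPM at 12 h and 174, 188 and 214 CPM at 24 h. The 6 h libraries were the lowest, and the 24 h libraries overlapped with those of 12 h and DMSO. Its change was -0.71 ± 0.07 at 6 h (adjusted p = 1.92e-06), and -0.25 ± 0.07 at both 12 h (adjusted p = 0.0280) and 24 h (adjusted p = 0.0183). The 12 h call failed on omitting any riociguat 12 h replicate, or DMSO replicate 2 or 3 (adjusted p 0.0649 to 0.185). The 24 h call failed on omitting riociguat 24 h replicate 1 or 2, or DMSO replicate 2 or 3 (adjusted p 0.0773 to 0.131).

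Col3a1, the chain of type III collagen, a fibril former of elastic tissues and early scars, rose. Col3a1 (ENSMUSG00000026043, chromosome 1, 45311538 to 45349706) had 324, 313 and 309.9 CPM in DMSO, 282, 304 and 276 CPM at 6 h, 399, 405 and 353 CPM at 12 h and 468, 481 and 419 CPM at 24 h. All 24 h libraries lay above all others, and all 12 h libraries above DMSO and 6 h. The change was 0.29 ± 0.06 at 12 h (adjusted p = 0.00544) and 0.53 ± 0.06 at 24 h (adjusted p = 7.97e-06), and at 6 h it was -0.14 ± 0.06 (adjusted p = 0.176). Col3a1 overlaps a gene model, Gm47302, and reads could be split. The promoter windows of Col1a2 and Col3a1 are shown for their contrast in base content. Against DMSO, Col1a2 was lower and Col3a1 higher at both 12 h and 24 h, and their ratio was not tested. No window was available for Col1a1. The Col1a2 window is chr6:4505368-4505667 and the Col3a1 window chr1:45311288-45311587, both on the plus strand. Capitals mark CCAAT boxes and GC boxes in the Col1a2 window. In the Col3a1 window they mark a TATA box match (TATAAA), whose first base is at -117 from the start, and a TEAD motif (GGAATG).
Col1a2: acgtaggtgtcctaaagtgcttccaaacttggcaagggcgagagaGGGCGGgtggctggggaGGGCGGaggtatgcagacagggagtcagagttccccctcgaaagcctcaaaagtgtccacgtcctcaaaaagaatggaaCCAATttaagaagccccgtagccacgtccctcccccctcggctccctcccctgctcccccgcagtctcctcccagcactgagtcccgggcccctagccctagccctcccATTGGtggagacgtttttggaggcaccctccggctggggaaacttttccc
Col3a1: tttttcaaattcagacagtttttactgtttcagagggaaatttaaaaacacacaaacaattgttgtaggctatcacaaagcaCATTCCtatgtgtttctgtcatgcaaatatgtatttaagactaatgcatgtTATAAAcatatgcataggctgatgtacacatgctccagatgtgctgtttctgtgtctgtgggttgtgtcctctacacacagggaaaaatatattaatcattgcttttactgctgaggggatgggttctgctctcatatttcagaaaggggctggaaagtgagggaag
The Col1a2 window is 61.0% and the Col3a1 window 37.7% G and C. TATA boxes occur in 13.6% and TEAD motifs in 14.7% of all windows. Of the 35 collagen genes with a window, 5 have a TATA box and 22 a GC box. Searches for the AP-1 motif (TGANTCA, in 7.81% of all windows) and the serum response element (in 1.63%) found neither in these 4 windows.

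Type V chains sit at the core of type I fibrils. Col5a2 (chromosome 1, 45374321 to 45503282), which lies 24614 bases from Col3a1 and faces it, had 348, 381 and 387 CPM in DMSO, 307, 314 and 282 CPM at 6 h, 308, 282 and 308 CPM at 12 h and 271, 266 and 287 CPM at 24 h. All riociguat libraries of Col5a2 lay below all DMSO libraries. The change was -0.31 ± 0.05 at 6 h (adjusted p = 0.00128), -0.31 ± 0.05 at 12 h (adjusted p = 0.00115) and -0.44 ± 0.05 at 24 h (adjusted p = 2.70e-05). Its partner Col5a1 had 344, 335 and 358 CPM in DMSO, 309, 299 and 305 CPM at 6 h, 372, 343 and 346 CPM at 12 h and 333, 343 and 307 CPM at 24 h. Col5a1 fell at 6 h, by a log2 change of -0.18 ± 0.05 (adjusted p = 0.0195), and that call failed on omitting riociguat 6 h replicate 2 or 3, or DMSO replicate 3 (adjusted p 0.0576 to 0.102). Its exons overlap those of 2810430I11Rik and Gm13372, and reads could be split.

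Type VI chains, which assemble from α1, α2 and α3 chains, moved in opposite directions. Col6a1 had 142, 139 and 132 CPM in DMSO, 139, 128 and 139.9 CPM at 6 h, 181, 176 and 157 CPM at 12 h and 209, 195 and 174 CPM at 24 h. The 12 h and 24 h libraries all lay above those of DMSO and 6 h. Col6a1 rose by 0.31 ± 0.07 at 12 h (adjusted p = 0.00696) and 0.48 ± 0.07 at 24 h (adjusted p = 7.71e-05), and was at -0.02 ± 0.07 at 6 h (adjusted p = 0.898). Col6a2 had 104, 105 and 106 CPM in DMSO, 100.1, 99.3 and 95.7 CPM at 6 h, 126, 124 and 114 CPM at 12 h and 131, 128 and 118 CPM at 24 h. Its 12 h and 24 h libraries lay above DMSO and its 6 h libraries below. Col6a2 rose by 0.21 ± 0.05 at 12 h (adjusted p = 0.0179) and 0.26 ± 0.05 at 24 h (adjusted p = 0.00225). The 12 h call failed on omitting riociguat 12 h replicate 1 or 2, or DMSO replicate 2 (adjusted p 0.0747 to 0.0816). Col6a3 had 242, 248 and 246 CPM in DMSO, 159.9, 163 and 162 CPM at 6 h, 219, 213 and 199 CPM at 12 h and 179, 190.3 and 179 CPM at 24 h. All riociguat libraries of Col6a3 were below all DMSO libraries. The log2 changes were -0.60 ± 0.04 at 6 h (adjusted p = 1.33e-07), -0.22 ± 0.04 at 12 h (adjusted p = 0.00375) and -0.43 ± 0.04 at 24 h (adjusted p = 3.43e-06).

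FACIT chains differed from each other. Col12a1 (ENSMUSG00000032332, chromosome 9, 79598991 to 79718831), whose product binds fibrils in tendon and stretched tissue, had 282, 320.4 and 309 CPM in DMSO, 342, 342 and 340.5 CPM at 6 h, 260.0, 253 and 274 CPM at 12 h and 129, 129.5 and 129 CPM at 24 h. The 24 h libraries were far below all others, and the 6 h libraries above all others. At 24 h Col12a1 fell, with a log2 change of -1.23 ± 0.05 (adjusted p = 4.15e-11), a level 57.5% below DMSO. Between riociguat 24 h and 12 h it fell, with a log2 change of -1.02 ± 0.05 (adjusted p = 2.41e-09). The 6 h rise of 0.17 ± 0.05 (adjusted p = 0.0299) failed on omitting any riociguat 6 h replicate, or DMSO replicate 1 or 3 (adjusted p 0.0582 to 0.102). The 12 h fall of -0.21 ± 0.05 (adjusted p = 0.0101) failed on omitting riociguat 12 h replicate 1 or 2, or DMSO replicate 2 or 3 (adjusted p 0.0540 to 0.0973). Hepatocyte markers, 10 in the list and none at 0 in a group, summed to 1180 to 1236 CPM in DMSO, 996 to 1138 CPM at 6 h, 1108 to 1372 CPM at 12 h and 558 to 786 CPM at 24 h, and 9 of 10 fell at 24 h, against 7.41% of all genes. Cholangiocyte markers, 8 in the list and none at 0, summed to 549 to 591 CPM in DMSO, 513 to 563 CPM at 6 h, 661 to 754 CPM at 12 h and 983 to 1025 CPM at 24 h. The higher sum at 24 h came from Spp1, which other cells also make. Spp1 was the 1 of 7 tested that rose at 24 h, where 5.94% of all genes rose. Without Spp1 the sum was 293 to 309 CPM in DMSO, 251 to 271 CPM at 6 h, 298 to 340 CPM at 12 h and 256 to 297 CPM at 24 h. The part of both cell types in the 24 h changes was not tested.

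Col14a1, another FACIT chain, found on fibrils of soft tissue, had 129.7, 128 and 129 CPM in DMSO, 81.9, 85.4 and 71.2 CPM at 6 h, 121, 118 and 115 CPM at 12 h and 132, 142 and 142 CPM at 24 h. Its 6 h libraries lay below all others. The change was -0.70 ± 0.06 at 6 h (adjusted p = 5.98e-07), and at 12 h and 24 h it was -0.12 ± 0.06 (adjusted p = 0.285) and 0.11 ± 0.06 (adjusted p = 0.258). Col16a1 had 71.6, 68.0 and 75.5 CPM in DMSO, 54.0, 54.3 and 56.1 CPM at 6 h, 70.4, 66.7 and 72.9 CPM at 12 h and 54.4, 57.1 and 60.1 CPM at 24 h. It fell, with a log2 change of -0.39 ± 0.06 at 6 h (adjusted p = 0.000320) and -0.33 ± 0.06 at 24 h (adjusted p = 0.000977). Its 12 h libraries overlapped with DMSO, and those of 6 h and 24 h lay below. Col9a3, Col20a1 and Col22a1 of the same class had group means of at most 1.85 CPM and passed no test.

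Both multiplexins and type VIII collagen changed. Col18a1, whose product is cut to release endostatin, had 132, 129.6 and 127 CPM in DMSO, 115, 122 and 107 CPM at 6 h, 166, 161 and 156 CPM at 12 h and 151, 154 and 146 CPM at 24 h. The 12 h libraries were the highest and the 6 h libraries the lowest. Col18a1 rose by 0.31 ± 0.05 at 12 h (adjusted p = 0.000559) and 0.22 ± 0.05 at 24 h (adjusted p = 0.00724). The 6 h change of -0.18 ± 0.05 (adjusted p = 0.0308) was lost with only the 6 libraries compared (adjusted p = 0.0866) and without riociguat 6 h replicate 1 or 3, or any DMSO replicate (adjusted p 0.0619 to 0.164). Col15a1 had 12.6, 14.7 and 13 CPM in DMSO, 7.39, 7.86 and 7.78 CPM at 6 h, 11.6, 13.2 and 14.1 CPM at 12 h and 12.1, 13.3 and 11.8 CPM at 24 h, and its 6 h libraries lay below all others. It fell, with a log2 change of -0.80 ± 0.11 at 6 h (adjusted p = 0.000117). Gm12426 overlaps its exons. The 12 portal fibroblast and mesothelial markers, none at 0, summed to 649 to 738 CPM in DMSO, 544 to 574 CPM at 6 h, 652 to 693 CPM at 12 h and 627 to 656 CPM at 24 h, so that this sum, too, was lowest at 6 h. The low 6 h sum came from Fbln2, and without it the sum was 298 to 313 CPM in DMSO, 305 to 309 CPM at 6 h, 310 to 318 CPM at 12 h and 256 to 278 CPM at 24 h. Most of that remaining sum was Krt19, also in the cholangiocyte list, and Cd34. Krt19 averaged 123 CPM in DMSO and 114 CPM at 6 h, and Cd34 107 and 125 CPM. The remaining sum therefore does not mark portal fibroblasts apart from other cells. Of 11 tested markers of the list, 1 rose and 2 fell at 6 h, where 4.48% of all genes rose and 5.24% fell. Their part in the 6 h changes of Col1a2, Col14a1, Col15a1 and Col16a1 was not tested. Col8a1 had 25.8, 28.0 and 26.7 CPM in DMSO, 14.9, 13.8 and 13.8 CPM at 6 h, 18.3, 16.3 and 19.1 CPM at 12 h and 19.9, 15.5 and 19.7 CPM at 24 h. Every riociguat library of Col8a1 lay below every DMSO library, by -0.93 ± 0.10 at 6 h (adjusted p = 7.41e-06), -0.59 ± 0.10 at 12 h (adjusted p = 0.000639) and -0.54 ± 0.10 at 24 h (adjusted p = 0.000872). Col13a1, a transmembrane collagen of low abundance, averaged 1.85 ± 0.236 CPM in DMSO, 4.70 ± 1.22 CPM at 6 h, 2.46 ± 0.289 CPM at 12 h and 2.83 ± 0.649 CPM at 24 h (SD, n = 3 each). It rose at 6 h by 1.34 ± 0.25 (adjusted p = 0.00226), and every 6 h library lay above all others.

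Ratios between partner or related chains differed among the 4 groups, some of them only slightly. The ratio of 2 genes within a library needs no scaling between libraries, and each was compared over the 4 groups with an exact permutation test of all 15400 divisions of the 12 libraries, with values adjusted over 6 ratios. Col1a1 to Col1a2 counts averaged 1.58 in DMSO, 1.83 at 6 h, 1.61 at 12 h and 1.03 at 24 h (exact adjusted p = 0.00130). The 24 h libraries held 1.0, 1.13 and 0.967, below every other library. Col3a1 to Col1a1 averaged 0.882 in DMSO, 1.13 at 6 h, 1.25 at 12 h and 2.32 at 24 h (exact adjusted p = 0.00117). Col6a3 to Col6a1 averaged 1.78 in DMSO, 1.19 at 6 h, 1.23 at 12 h and 0.951 at 24 h (exact adjusted p = 0.00117). Col4a1 to Col4a2 moved least, at 2.11, 2.0, 1.98 and 2.13 in DMSO and at 6, 12 and 24 h (exact adjusted p = 0.00721). Col5a1 to Col5a2 averaged 0.931, 1.01, 1.18 and 1.19 in the same order (exact adjusted p = 0.00943). Col6a1 to Col6a2 averaged 1.31, 1.38, 1.41 and 1.53 (exact adjusted p = 0.0154). The smallest p that the design allows is 6.49e-05.

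**Figure D5:**
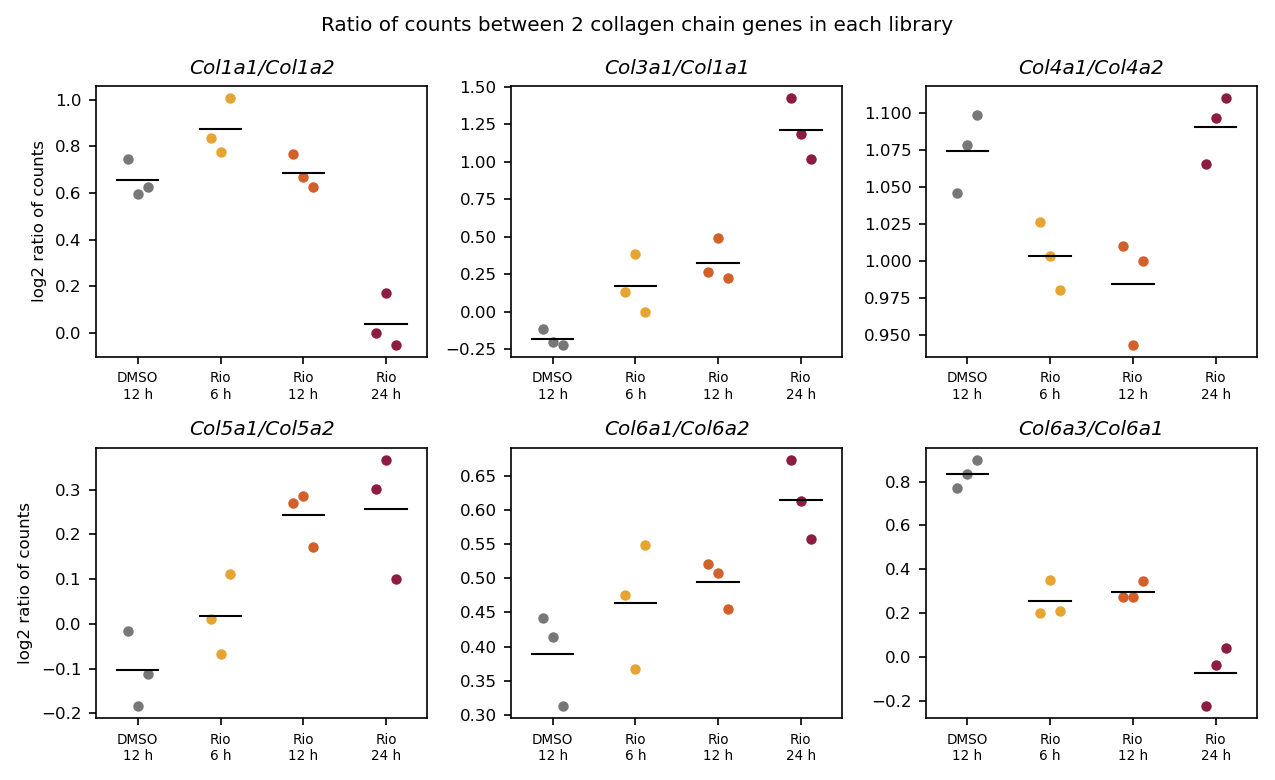
Log2 ratio of counts between partner or related chains in each library, with a line at the group mean; the vertical scale differs between panels and does not start at 0. Col3a1 to Col1a1 is highest at 24 h (mean log2 ratio 1.21) and lowest in DMSO (-0.18), and Col4a1 to Col4a2 spans a range of group means of 0.106.

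The riociguat groups were also compared with each other. Riociguat 12 h against 6 h raised 11 and lowered 4 of 32 chains, where 2.57% of all genes rose and 3.52% fell. The 4 lowered chains were Col4a1, Col4a2, Col12a1 and Col13a1. Their number dropped to 1 without riociguat 6 h replicate 1 or riociguat 12 h replicate 2, and to 2 without riociguat 6 h replicate 2 or riociguat 12 h replicate 3. The Col13a1 call was lost without riociguat 6 h replicate 1 or 2, or any riociguat 12 h replicate (adjusted p 0.0830 to 0.160). Riociguat 24 h against 6 h raised 10 and lowered 4, where 7.16% rose and 8.13% fell. Riociguat 24 h against 12 h raised 2, Col3a1 and Col14a1, and lowered 5, where 1.37% rose and 1.71% fell. Those that fell were Col1a1, Col4a2, Col6a3, Col12a1 and Col16a1. In this comparison the calls of Col3a1 (without riociguat 12 h replicate 3 or riociguat 24 h replicate 1 or 2), Col4a2 (without riociguat 12 h replicate 1 or riociguat 24 h replicate 2), Col6a3 (without riociguat 12 h replicate 1 or 2 or riociguat 24 h replicate 1 or 3), Col14a1 (without DMSO replicate 2, any riociguat 12 h replicate or riociguat 24 h replicate 2 or 3) and Col16a1 (without riociguat 12 h replicate 3 or riociguat 24 h replicate 1) did not hold, with adjusted p of 0.0505 to 0.158. The time of addition after the medium change differs between these groups, so exposure time and that time cannot be told apart.

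The 14 tested chains called in no pairwise comparison had group means of 0.215 to 20.5 CPM, and 10 of them stayed at or under 5 CPM in every group. Their lowest adjusted p over 84 tests was 0.0763. The 4 above 5 CPM were Col4a5, Col5a3, Col23a1 and Col27a1. The 12 untested chains, among them the cartilage chains Col2a1, Col9a1 and Col10a1, had at most 85 counts over all 12 libraries, and Col9a1 had none.

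Genes that handle collagen were taken from 6 lists. Their counts stand against all tested genes, of which 4.48% rose and 5.24% fell at 6 h, 2.18% rose and 3.48% fell at 12 h, and 5.94% rose and 7.41% fell at 24 h. Propeptide removal and crosslinking held 12 tested genes, and 4 fell at 6 h, 5 at 12 h and 5 at 24 h, with median log2 changes of -0.19, -0.16 and -0.14. Pcolce, which enhances removal of the C-terminal propeptide of fibrillar chains, had 76.9, 83.0 and 82.2 CPM in DMSO, 50.6, 49.9 and 50.3 CPM at 6 h, 65.2, 59.8 and 60.3 CPM at 12 h and 62.6, 67.7 and 71.6 CPM at 24 h. It fell, with a log2 change of -0.68 ± 0.06 at 6 h (adjusted p = 8.54e-07), -0.39 ± 0.06 at 12 h (adjusted p = 0.000355) and -0.26 ± 0.06 at 24 h (adjusted p = 0.00572). Adamts14, which cuts the N-terminal propeptide, fell, with a log2 change of -0.80 ± 0.08 at 6 h (adjusted p = 2.67e-06) and -0.51 ± 0.08 at 12 h (adjusted p = 0.000262). Loxl2, a crosslinking oxidase, fell, with a log2 change of -0.23 ± 0.04 at 12 h (adjusted p = 0.00157) and -0.33 ± 0.04 at 24 h (adjusted p = 2.31e-05). Its 6 h call (-0.17 ± 0.04, adjusted p = 0.0132) failed on omitting DMSO replicate 2 or 3 (adjusted p 0.0563 to 0.0768).

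In the fibril-binding list of 14, Thbs1, a matricellular protein that binds collagen, had 1922, 2228 and 2229.8 CPM in DMSO, 2082, 1692 and 2116 CPM at 6 h, 691, 640.2 and 785 CPM at 12 h and 731, 724 and 852 CPM at 24 h. It fell, with a log2 change of -1.59 ± 0.09 at 12 h (adjusted p = 5.44e-09) and -1.47 ± 0.09 at 24 h (adjusted p = 1.07e-08), while the 6 h libraries overlapped with DMSO. Tnxb rose by 0.53 ± 0.05 at 12 h (adjusted p = 1.52e-06) and 0.29 ± 0.05 at 24 h (adjusted p = 0.000728). Its 6 h rise of 0.19 ± 0.05 (adjusted p = 0.0213) failed on omitting riociguat 6 h replicate 2 or 3, or DMSO replicate 2 or 3 (adjusted p 0.0540 to 0.103). Prelp fell, with a log2 change of -0.59 ± 0.07 at 6 h (adjusted p = 3.42e-05) and -0.34 ± 0.07 at 12 h (adjusted p = 0.00576). In the list as a whole 1 rose and 6 fell at 6 h, 2 rose and 4 fell at 12 h, and 4 rose and 1 fell at 24 h, with medians of -0.13, -0.04 and 0.00. Of 10 tested collagen receptor and uptake genes 1 rose and 2 fell at 6 h and again at 12 h, and 2 rose and 1 fell at 24 h. Among collagen receptors, Itga2, the α2 subunit of a collagen-binding integrin, rose by 0.38 ± 0.07 at 12 h (adjusted p = 0.00415) and 0.68 ± 0.07 at 24 h (adjusted p = 7.16e-06). Itga1, the α1 subunit of another, fell, with a log2 change of -0.36 ± 0.05 at 6 h (adjusted p = 0.000136) and -0.34 ± 0.05 at 12 h (adjusted p = 0.000240). Of the 19 folding and modification genes 4 fell at 6 h, 1 at 12 h, and 2 rose and 2 fell at 24 h, with medians of -0.12, -0.06 and 0.03. Of the 10 secretion genes 1 rose at 6 h, 1 at 12 h, and 1 rose and 2 fell at 24 h. In lists this short, counts of 1 or 2 genes are not read as a result about the list. Of the 6 collagenases and gelatinases 1 fell in each comparison with DMSO. At 12 h that was Mmp13, the main interstitial collagenase of rodents, at -0.53 ± 0.09 (adjusted p = 0.00154).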

How the data were processed

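RNA sequencing was available for 12 libraries. The authors deposited expected counts for each gene. Per the submitters' processing notes, FastQC, fastp, Salmon and DESeq2 were named with build GRCm38, with no version or order given. Estimated counts share reads between similar transcripts, so values of overlapping genes are uncertain. Values were whole numbers, and rounding changed 0 of them. Symbols matched 53355 of 53452 identifiers. Gene positions and lengths come from GENCODE vM21 of GRCm38.

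Genes passing filterByExpr (16036) were tested with edgeR 4.0.16 in R 4.3.3 (TMM scaling, quasi-likelihood F test, two-sided). A single model held all 12 libraries, and each comparison's p-values received Benjamini-Hochberg adjustment over all tested genes. The coefficient of variation was 0.0798, with 8 residual and 8.80 prior degrees of freedom. Ratios carried an offset of 0.5 counts. The members, lists and rules were chosen with earlier results of these data known. Chains with a call and at least 5 CPM in a group are given in every library or by group mean and SD. The steps were tested on simulated counts. Alternatives were other size factors, filters, DESeq2 1.42.0, subsets of libraries, a replicate block and transcript length. Sums of marker lists without their most abundant gene were added after seeing the data.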

Additional observations from a re-analysis of the deposited data

Results flagged for a closer look

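Among collagen chains with at least 5 CPM in a group, the riociguat exposure times differed in the following at an adjusted p under 0.05. The test was of the difference itself (edgeR's quasi-likelihood test), and values are log2 fold changes. Calls of Col4a6 and Col13a1, under 5 CPM in every group, are given above. Riociguat 12 h against 6 h gave 0.27 for Col1a1, 0.46 for Col1a2, 0.42 for Col3a1, 0.22 for Col5a1, 0.34 for Col6a1, 0.30 for Col6a2, 0.38 for Col6a3, 0.57 for Col14a1, 0.75 for Col15a1, 0.35 for Col16a1 and 0.49 for Col18a1. In that comparison Col4a1 was at -0.20, Col4a2 at -0.19 and Col12a1 at -0.38. The Col1a1 call was lost without riociguat 6 h replicate 1 or 2 or riociguat 12 h replicate 1 or 3 (adjusted p 0.0634 to 0.156).

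Riociguat 24 h against 6 h gave 0.46 for Col1a2, 0.67 for Col3a1, 0.50 for Col6a1, 0.35 for Col6a2, 0.17 for Col6a3, 0.39 for Col8a1, 0.81 for Col14a1, 0.68 for Col15a1 and 0.40 for Col18a1. Col1a1 was at -0.37, Col4a1 at -0.31, Col4a2 at -0.40 and Col12a1 at -1.40. The Col8a1 call was lost without riociguat 6 h replicate 2 or 3 or riociguat 24 h replicate 1 or 3 (adjusted p 0.0515 to 0.0618). Riociguat 24 h against 12 h gave 0.24 for Col3a1, 0.23 for Col14a1, -0.64 for Col1a1, -0.21 for Col4a2, -0.20 for Col6a3, -1.02 for Col12a1 and -0.29 for Col16a1.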

How the results depend on the processing

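None of the named collagen chain results reversed its direction under the alternatives run. Leaving out each library in turn gave 11 to 14 called chains at 6 h against DMSO, 8 to 12 at 12 h, 12 to 13 at 24 h, 11 to 16 for 12 h over 6 h, 4 to 7 for 24 h over 12 h, 12 to 15 for 24 h over 6 h and 16 to 17 for any difference. Over all genes the counts were 955 to 1852 at 6 h against DMSO, 510 to 1262 at 12 h, 1395 to 2566 at 24 h, 596 to 1048 for 12 h over 6 h and 318 to 551 for 24 h over 12 h, where DMSO replicate 2 (955 genes at 6 h, 564 at 12 h, 1395 at 24 h), DMSO replicate 3 (992 at 6 h, 567 at 12 h), riociguat 6 h replicate 2 (1010 at 6 h) and riociguat 12 h replicate 2 (510 at 12 h) moved the counts against DMSO by over 1.5 times. Between times, so did riociguat 6 h replicate 3 (600 genes) and riociguat 12 h replicate 2 (596) for 12 h over 6 h, and riociguat 12 h replicates 1 (318) and 2 (319) for 24 h over 12 h. The 4 chains called for 24 h over 12 h came on omitting riociguat 12 h replicate 1, riociguat 12 h replicate 3, riociguat 24 h replicate 1 or riociguat 24 h replicate 2. With no filter on low counts, 838 genes were called for 24 h over 12 h, against 494, while 689 rose at 12 h against DMSO (349 with the filter) and 676 for 12 h over 6 h (412); the cause was not tested. With mitochondrial genes left out of the total, the collagen share was 0.685% in DMSO, 0.549% at 6 h, 0.563% at 12 h and 0.510% at 24 h, which follows from the smaller total. No pairing of samples by replicate number was seen. The 18 same-numbered correlations between deviations ran from -0.136 to 0.0843, and 0 exceeded 0.1. Pairs with different numbers ran from -0.0739 to 0.0978. These correlations run over all tested genes, so a pairing that touches few genes could be missed. With the replicate number as a block, the Col14a1 call for 24 h over 12 h was lost (adjusted p = 0.0508) and the Col13a1 call for 12 h over 6 h too (adjusted p = 0.0545). Depth limits the scarce chains, since genes near 1 CPM hold few counts per library.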
